A study of Mus musculus with 10 samples.

Results

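The globin and erythroid genes described here are the adult alpha globin gene Hba-a1, the adult beta globin genes Hbb-b1 and Hbb-b2, and 5 genes of the red cell lineage, Alas2, Car2, Car1, Epb42 and Klf1. The platform annotation assigned 11 of the 12488 probe sets of the array to these 8 genes. The genes were chosen by their known role and by globin values seen earlier on these arrays, which were high under the strain name ILn. The ILn values are therefore given as a description, with no test. Biotin-labelled total RNA of mouse mammary tumours was measured on Affymetrix mg_u74av2 arrays, from adult females at an age of 90 days. The titles of 9 arrays name a strain: FVBn on 1 array (B), and ILn, LP, MOLF and NZB on 2 arrays each (A and B). The remaining array has a title that names neither a strain nor a tumour. Whether it is a mammary tumour is not settled here, and it was kept out of every comparison. The strain field reads FVB/Nj on all 10 arrays, and the titles are the sole basis of the groups. The sample labels give no transgene and no treatment. The series title names MMTV-PyMT-transgenic mice, in which the MMTV promoter expresses the polyomavirus middle T antigen in mammary epithelium. The titles of the 9 arrays use the word mix and do not say what was mixed. No label says that the A and B arrays of a strain name came from separate animals, so the spread behind the p-values is that between these arrays and may be technical.

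Haemoglobin is a tetramer of alpha and beta globin chains, each holding a haem group that binds oxygen. Red cell precursors make the chains in very large amounts, and young circulating red cells (reticulocytes) still carry globin mRNA, so RNA from a tissue piece with blood in it holds globin transcripts. Alas2 is the erythroid form of 5-aminolevulinate synthase, the first enzyme of haem synthesis. Klf1 is a zinc finger transcription factor that binds CACCC boxes and activates adult beta globin. Car1 and Car2 are carbonic anhydrases of the red cell, Car2 being made by many epithelia as well, and Epb42 is protein 4.2 of the red cell membrane skeleton. The mouse beta globin locus differs between inbred strains. The haplotype called single carries Hbb-bs and Hbb-bt, and the one called diffuse carries Hbb-b1 and Hbb-b2. The probes of an array can therefore pair unequally with the transcripts of different strains. The part of Hbb haplotype in the values below was not tested.

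The annotation of the probe sets differs in how far it tells the genes apart. By it, Hba-a1 had a probe set of its own (94781_at) and shared another with its near-identical copy Hba-a2 (162457_f_at). Probe sequences were not checked, so a single symbol does not show that a probe set measures that gene alone. Hbb-b2 had its own probe set (103534_at). The annotation gave 101869_s_at and 160560_at to Hbb-bt, Hbb-bs, Hbb-b2 and Hbb-b1 together, and Hbb-b1 had no other probe set. Such signals are called beta globin here, without saying which gene they came from. Levels of different probe sets were not set against each other, since each has its own brightness.

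Promoters of some of these genes are shown as a description, and their part in the values below was not tested. The sequences are the 250 bases before the start site, 5′ to 3′ on the strand of the gene, from RefSeq, build GRCm38.p6. Of the 8 genes, 4 matched the table, namely Hba-a1, Alas2, Epb42 and Klf1. The others are Hbb-b1, Hbb-b2, Car1 and Car2. The Hbb-bs and Hbb-bt promoters stand for the beta globin genes named by the shared probe sets. Hba-a1 is at chr11:32283422-32283671 on the plus strand, Hbb-bs at chr7:103827929-103828178 and Hbb-bt at chr7:103813924-103814173 on the minus strand, and Alas2 at chrX:150547167-150547416 on the plus strand. Capitals mark GATAA (the core bound by GATA factors), CACCC (the box bound by Klf1 and its relatives), CCAAT (the box of that name) and TATAA (the TATA box), on either strand.
Hba-a1: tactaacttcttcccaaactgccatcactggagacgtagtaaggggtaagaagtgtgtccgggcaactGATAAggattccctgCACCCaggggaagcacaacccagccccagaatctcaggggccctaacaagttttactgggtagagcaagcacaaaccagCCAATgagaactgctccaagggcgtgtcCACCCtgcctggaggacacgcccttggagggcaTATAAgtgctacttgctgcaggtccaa
Hbb-bs: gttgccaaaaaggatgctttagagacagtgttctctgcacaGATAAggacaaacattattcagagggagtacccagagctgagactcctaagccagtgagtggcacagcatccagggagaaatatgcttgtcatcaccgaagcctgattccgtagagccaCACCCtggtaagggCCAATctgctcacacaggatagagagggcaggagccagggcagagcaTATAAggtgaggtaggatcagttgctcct
Hbb-bt: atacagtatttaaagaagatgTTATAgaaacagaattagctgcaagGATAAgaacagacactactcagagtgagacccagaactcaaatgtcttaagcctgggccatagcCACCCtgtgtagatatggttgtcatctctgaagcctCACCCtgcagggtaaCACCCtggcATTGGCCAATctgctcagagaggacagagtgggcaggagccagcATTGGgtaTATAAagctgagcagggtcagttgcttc
Alas2: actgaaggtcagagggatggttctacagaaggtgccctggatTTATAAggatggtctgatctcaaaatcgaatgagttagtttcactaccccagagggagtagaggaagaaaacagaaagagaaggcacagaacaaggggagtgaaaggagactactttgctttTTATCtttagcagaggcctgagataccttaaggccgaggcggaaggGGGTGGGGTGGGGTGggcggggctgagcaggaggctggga

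In the windows searched, of 300 bases with 50 after the start site, Hba-a1, Hba-a2, Hbb-bs and Hbb-bt each held all 4 motifs. All 4 were found in 1.51% of 32851 RefSeq promoters of that length. Singly, GATAA was in 25.4% of them, CACCC in 57.5%, CCAAT in 37.4% and TATAA in 24.9%. On the gene's own strand, TATAA began 27 bases before the start in Hba-a1, 29 in Hbb-bs and 28 in Hbb-bt. CCAAT began 88, 76 and 75 bases before it. Alas2 held 3 of the motifs, with 3 CACCC matches in a row on the minus strand and TATAA on both strands at overlapping positions. Klf1 held 3 of the 4 and Epb42 held 2. The windows were also set side by side at the best single offset, with no gaps allowed. The Hba-a1 and Hba-a2 windows were then identical over all 297 overlapping bases. Hbb-bs and Hbb-bt were identical at 56.2% of 299 bases. An inserted or lost base lowers such a share, so it is not a measure of how far the beta globin promoters differ. Their GATAA began 209 and 204 bases before the start, a larger shift than that of TATAA or CCAAT. Such matches are descriptions of letters, not of bound sites.

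All values below are log2 intensities after quantile normalization of the 9 strain arrays, and a difference is on the log2 scale unless a fold is named. A floor was set at the 30th percentile of intensity, which is 27.0 or 4.75 on the log2 scale. Of 11 member probe sets, 7 lay above the floor on at least 2 of the 9 strain arrays and were tested with the other probe sets, 9897 in all. The other 4 were at the floor on all 9 strain arrays and on the array with no strain name. These were both Epb42 probe sets (102908_at and 161151_at), the Car1 probe set (98098_at) and the beta globin probe set 160560_at. For them the arrays give only an upper bound, and no difference could be computed. Alas2 passed the filter through ILn, FVBn, LP A and MOLF B, and lay at the floor on the other 4 strain arrays.

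Alpha globin was highest under ILn, next under FVBn, and lower under the other 3 strain names. Hba-a1 (94781_at) read 10.79 on ILn A and 10.48 on ILn B, 10.16 on FVBn B, 8.68 and 8.70 on LP A and B, 8.89 and 8.84 on MOLF A and B, and 9.30 and 8.94 on NZB A and B. The ILn arrays lay above all others, and the FVBn array lay above all 6 LP, MOLF and NZB arrays. The ILn mean of 10.63 ± 0.22 (SD, n = 2) was 1.74 (SE 0.149) above the mean of LP, MOLF and NZB, or 3.35-fold. The probe set shared by Hba-a1 and Hba-a2 (162457_f_at) read 9.45 and 9.63 under ILn, 9.13 on the FVBn array, 8.63 and 8.66 under LP, 8.39 and 8.84 under MOLF, and 8.78 and 8.77 under NZB. It had the same order at its top, with a smaller excess of ILn over the 3 strain names of 0.86 (SE 0.158), or 1.82-fold. Below FVBn, the order of the other 3 was not resolved by this probe set, whose LP, MOLF and NZB means of 8.65 ± 0.02, 8.62 ± 0.32 and 8.77 ± 0.01 (SD, n = 2) lay within the spread of the MOLF pair.

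Beta globin followed the same order with a wider range. The shared probe set 101869_s_at read 11.29 and 11.16 under ILn, 10.38 on the FVBn array, 8.54 and 8.46 under LP, 9.27 and 8.98 under MOLF, and 9.71 and 9.20 under NZB. Its range over the 9 arrays was 2.82, and the ILn excess over the mean of LP, MOLF and NZB was 2.19 (SE 0.165), or 4.58-fold. LP lay below every other array, and MOLF and NZB overlapped. Hbb-b2 (103534_at) read 9.63 and 9.76 under ILn, 8.82 on the FVBn array, 6.67 and 7.36 under LP, 6.47 and 7.48 under MOLF, and 8.46 and 8.0 under NZB. ILn and FVBn were again highest, NZB lay above both LP and MOLF, and the LP and MOLF arrays overlapped. The beta globin probe sets thus placed MOLF differently, above LP in 101869_s_at and level with LP in Hbb-b2, a difference between probe sets that was not itself tested. The ILn excess in Hbb-b2 was 2.29 (SE 0.319), or 4.89-fold. All 4 adult globin probe sets had ILn arrays above the 6 LP, MOLF and NZB arrays with no overlap. In that comparison 39 of 9897 probe sets, 0.394%, passed an adjusted p of 0.05, and nothing is read from the members against this share because the members were chosen by these values. The share of all probe sets without overlap was not computed, here or in the comparisons below, so absence of overlap is a description only.

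**Figure D1:**
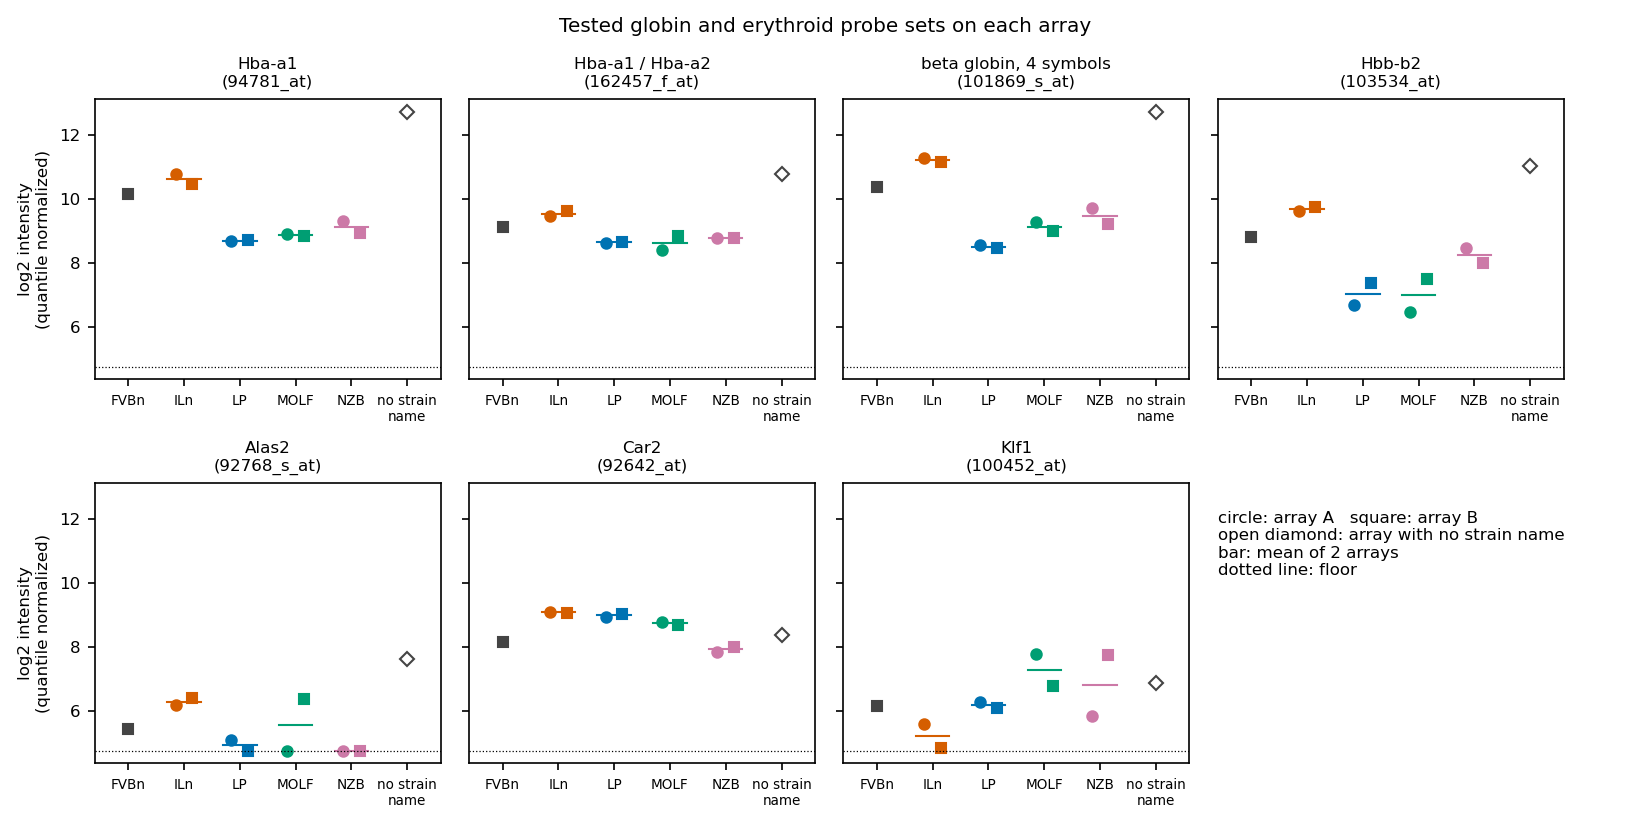
Log2 intensity (vertical axis, quantile normalized) of the 7 tested member probe sets on each array, by strain name, with a bar at the mean of 2 arrays, an open diamond for the array with no strain name and a dotted line at the floor of 4.75. In the 4 adult globin panels the ILn arrays and then the FVBn array lie above LP, MOLF and NZB, while Car2 is lowest under NZB and Klf1 is lowest under ILn.

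The embryonic globins, which are made by the first red cells of the yolk sac and are not adult products, did not show this order. Hba-x (100549_at), the embryonic alpha-like chain, lay between 5.01 and 6.54 under LP, MOLF and NZB and at 6.02 and 5.49 under ILn. Hbb-bh1 (103533_at), an embryonic beta-like gene, lay between 4.75 and 5.91 on those 6 arrays and at 5.13 and 5.28 under ILn. Hbb-y is the epsilon-like embryonic gene, and under ILn its probe sets read 4.75 and 4.96 (103535_at) and 4.75 on both arrays (97180_f_at), at or near the floor. The ILn difference from the mean of LP, MOLF and NZB was 0.03 for Hba-x, -0.16 for Hbb-bh1, and -0.20 and -0.63 for the Hbb-y probe sets in that order. All 4 of these probe sets overlapped between ILn and the other 3 strain names.

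The other genes of the lineage did not follow the globins as a group. Alas2 (92768_s_at) read 6.18 and 6.38 under ILn, 5.44 on the FVBn array, 5.08 on LP A and 6.36 on MOLF B, and was at the floor on LP B, MOLF A, NZB A and NZB B. Both ILn arrays were thus high, but MOLF B reached the ILn level and the groups overlapped. The difference of 1.20 (SE 0.406) between ILn and the other 3 strain names is understated, because 4 of the 6 arrays below it are at the floor. Klf1 (100452_at) read 5.59 and 4.83 under ILn, 6.14 on the FVBn array, 6.27 and 6.07 under LP, 7.77 and 6.76 under MOLF, and 5.84 and 7.74 under NZB. Klf1 was lowest under ILn, 1.53 (SE 0.557) below the mean of LP, MOLF and NZB in a fit where the NZB pair alone had an SD of 1.34. Its highest readings, 7.77 and 7.74, were on MOLF A and NZB B, the arrays that stand apart from the rest, as described below.

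Car2, which converts carbon dioxide and water to bicarbonate and protons, had a pattern of its own. Car2 (92642_at) read 9.09 and 9.07 under ILn, 8.92 and 9.04 under LP, 8.78 and 8.69 under MOLF, 8.16 on the FVBn array, and 7.84 and 7.99 under NZB. The SD of the A and B arrays was at most 0.10 under each strain name, and NZB lay below all other arrays. ILn lay 0.03 above the nearest LP array, so those neighbours in the order differed by less than the spread between arrays. LP was thus among the highest for Car2, whereas the mean of the adult globins, given next, was lowest under LP.

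Across the 9 strain arrays, the 4 adult globin probe sets varied together, less closely once ILn and FVBn were left out. Their mean, after centring each probe set on the 9 arrays, was 1.27 and 1.24 under ILn, 0.60 on the FVBn array, 0.04 and -0.29 under NZB, -0.77 and -0.48 under MOLF, and -0.89 and -0.72 under LP. Hba-a1 and the beta globin probe set had a Pearson correlation of 0.98 over 9 arrays and of 0.94 over the 6 LP, MOLF and NZB arrays, which leave out the arrays that were known to be high. Hba-a1 and Hbb-b2 gave 0.91 and 0.73, and the beta globin probe set and Hbb-b2 gave 0.90 and 0.54. For the probe set shared by Hba-a1 and Hba-a2, the correlation with Hba-a1 was 0.91 over 9 arrays and 0.28 over 6, with beta globin 0.89 and 0.10, and with Hbb-b2 0.94 and 0.78. Its joint variation with Hba-a1 and beta globin thus lay mainly in the ILn and FVBn arrays. The correlations with the globin mean over 9 and 6 arrays were 0.64 and -0.06 for Alas2, 0.09 and -0.93 for Car2, and -0.68 and -0.15 for Klf1. These are descriptions, since the arrays of a strain name are not independent and share normalization.

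The 4 tests that do not compare ILn asked whether the members differed between the other strain names. The ILn arrays still entered the normalization, the filter and the shared spread of these tests, so the p-values are not independent of ILn. The question for FVBn was how the single array compared with the mean of LP, MOLF and NZB, on the assumption that it varies like the other groups. It uses the same LP, MOLF and NZB arrays as the ILn description, so the pair of results is not independent. Hba-a1 was 1.26 (SE 0.197, 95% confidence interval 0.80 to 1.73) above the mean of the 3 strain names, or 2.40-fold, with an adjusted p of 0.0671 in limma. The beta globin probe set was 1.36 above it (SE 0.219, interval 0.84 to 1.87), or 2.56-fold, with an adjusted p of 0.0776. Hbb-b2 was 1.41 above it (SE 0.422, adjusted p = 0.717) and the probe set shared by Hba-a1 and Hba-a2 was 0.45 above it (SE 0.21, adjusted p = 0.975). In all 4 the FVBn array lay above every LP, MOLF and NZB array, and in none did the difference pass the threshold of 0.05. How many of all probe sets had the FVBn array above those arrays was not computed. With array weights, which let noisier arrays count less, the adjusted p was 0.0434 for Hba-a1 and 0.0221 for beta globin. Without NZB A the adjusted p of beta globin was 0.0477. Other settings moved it away from the threshold, to 0.591 and 0.509 for Hba-a1 and beta globin with median centring, 0.375 and 0.278 with title date as a block, and 0.246 and 0.257 without the intensity trend. Over all tested alternatives it ran from 0.0434 to 0.591 for Hba-a1 and from 0.0221 to 0.509 for beta globin, while the differences stayed between 1.21 and 1.45 and between 1.29 and 1.59. The remaining members had differences of -0.39 (Car2), 0.36 (Alas2) and -0.60 (Klf1), each with an adjusted p of 0.975. None of 7 members was called by limma, against 34 of 9897 probe sets, 0.344%. An unadjusted p under 0.05 was seen for 3 members and for 428 probe sets, 4.32%.

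LP against NZB gave the clearest difference in Car2. It was 1.07 (SE 0.165, interval 0.68 to 1.45) higher under LP, or 2.10-fold, with an adjusted p of 0.167 and an unadjusted p of 0.000283 in limma, and the groups were 0.94 apart with no overlap. Globins ran the other way, by amounts that differed between probe sets. The probe set shared by Hba-a1 and Hba-a2 was -0.13 (SE 0.194, adjusted p = 0.837 in limma), a difference smaller than its SE. The beta globin probe set was -0.95 (SE 0.203, adjusted p = 0.382), Hbb-b2 was -1.21 (SE 0.391, adjusted p = 0.63) and Hba-a1 was -0.43 (SE 0.182, adjusted p = 0.721), each with both LP arrays under both NZB arrays. None of 7 members was called, against 1 of 9897 probe sets, 0.0101%. An unadjusted p under 0.05 was seen for 4 members and for 660 probe sets, 6.67%.

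MOLF against NZB gave the same direction for Car2 and Hbb-b2. Car2 was 0.82 (SE 0.165, adjusted p = 0.186) higher under MOLF, or 1.76-fold. Hbb-b2 was -1.26 (SE 0.391, adjusted p = 0.488), with no overlap of the arrays. The beta globin probe set was -0.33 (SE 0.203, adjusted p = 0.93) and overlapped. None of 7 members was called, against 33 of 9897 probe sets, 0.333%. At an unadjusted p under 0.05 there were 2 members and 654 probe sets, 6.61%.

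In LP against MOLF the smallest p-value among the members was that of beta globin, and the largest difference that of Klf1. The probe set 101869_s_at was -0.62 (SE 0.203, adjusted p = 0.555) under LP relative to MOLF, with no overlap. Klf1 was -1.10 (SE 0.682, interval -2.70 to 0.50, adjusted p = 0.865), also with no overlap, and Hbb-b2 differed by 0.05 (interval -0.87 to 0.96). None of 7 members was called, against 44 of 9897 probe sets, 0.445%. At an unadjusted p under 0.05 there were 1 member and 620 probe sets, 6.26%. Intervals of this width leave room for differences of more than 1 log2 unit in Klf1 and Alas2, so a missed threshold does not show that the strain names were alike.

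**Figure D2:**
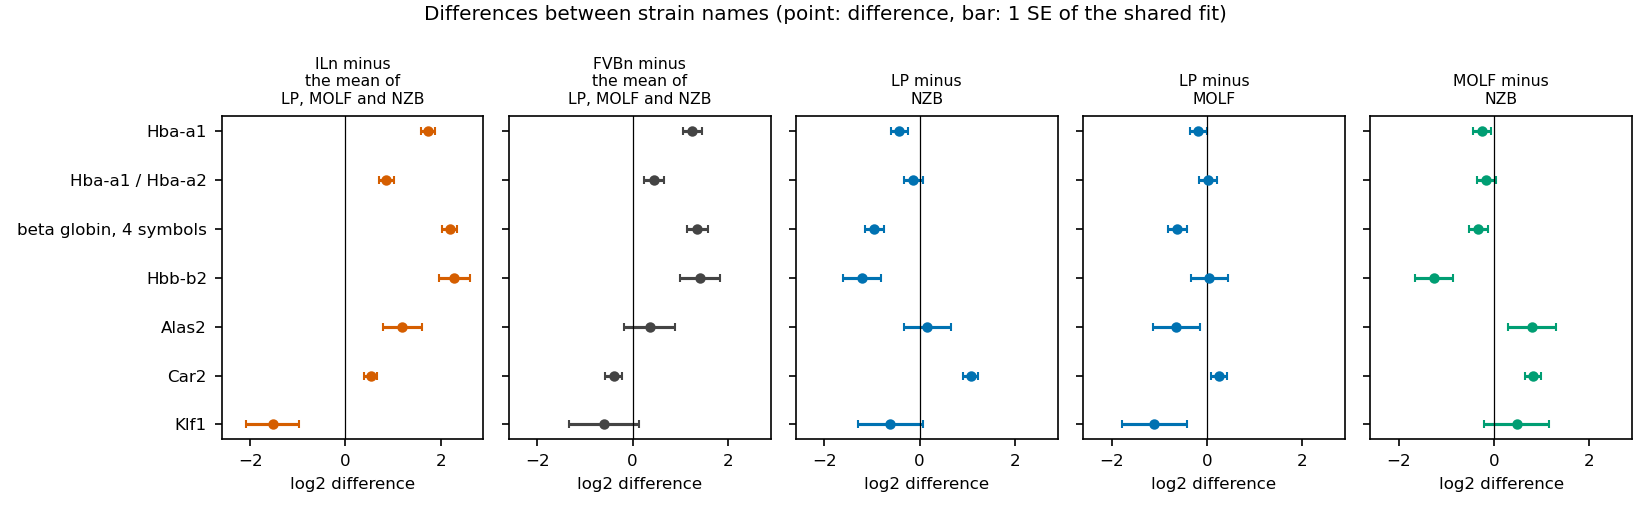
Log2 differences (horizontal axis) of the 7 tested member probe sets in 5 comparisons, each point with a bar of 1 SE from the shared fit. The ILn panel is a description without a test; in the other 4 panels no member passed an adjusted p of 0.05, with Hba-a1 and beta globin in the FVBn panel nearest to it at 0.0671 and 0.0776.

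The titles carry dates, and 1 of the 4 title dates holds an array of each of the 5 strain names (FVBn B, ILn B, LP B, MOLF B and NZB A). Within it, Hba-a1 was 1.78 higher on ILn B than on LP B, 1.63 higher than on MOLF B and 1.18 higher than on NZB A. FVBn B exceeded the same 3 arrays by 1.46, 1.31 and 0.86. The beta globin probe set on ILn B exceeded them by 2.70, 2.18 and 1.45, and on FVBn B by 1.92, 1.40 and 0.68. Car2 was 1.20 higher on LP B than on NZB A and 0.85 higher on MOLF B than on NZB A. Another title date holds ILn A and NZB B, where Hba-a1 was 1.85 and beta globin 2.09 higher on ILn A. In Hba-a1 and beta globin, ILn was thus above the strain names that shared a title date with it. FVBn was above LP, MOLF and NZB on its 1 title date. These are the array values given above, set side by side within dates, with 1 array on each side and no test.

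Other measures also set the FVBn and ILn arrays apart from the other 6 strain arrays. The actin control probe sets give a ratio of signal at the 3′ end to signal at the 5′ end, which rises where RNA is broken or its copying stops early. On the log2 scale the ratio was 0.22 on FVBn B and 0.22 and 0.28 under ILn, and from 0.60 to 1.12 on the other 6 strain arrays, so the arrays with high globin had the lower ratios. The Gapdh ratio was -0.29 on FVBn B and -0.41 and -0.21 under ILn, against 0.19 to 0.37 on the other 6. Salivary gland genes also stood higher there. The mean of the 8 tested genes of a salivary list, relative to the 9 arrays, was 3.13 on FVBn B and 2.27 and 2.17 under ILn, and -1.99 to -0.15 on the other 6. Of these 8 genes, 7 rose and none fell in FVBn against LP, MOLF and NZB, Amy1 (salivary amylase) by 5.93 with an adjusted p of 0.000554 in limma. In LP against MOLF, 1 salivary gene rose and 4 fell, and in MOLF against NZB 4 rose. Amy1 was at the floor on both LP and both NZB arrays. Within the other 6 arrays these measures did not follow the globins throughout. The globin mean was 0.04 and -0.29 under NZB, above -0.77 and -0.48 under MOLF. Yet the actin ratio was 0.96 and 1.03 under NZB and 0.78 and 0.60 under MOLF. The salivary mean was -1.74 and -1.99 under NZB and -0.34 and -0.15 under MOLF. LP, lowest in globin, had actin ratios of 1.12 and 0.94. The part of RNA quality and of salivary tissue in the globin differences was not tested. In a tumour sample, fewer cells of a type and less RNA per cell cannot be told apart.

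Lists of the other cells that come with blood or vessels had means much closer to each other, although some of their genes were highest under ILn. Endothelial genes (10 tested of 14, including Pecam1 and Cdh5) had means of -0.17 to 0.24 on the 9 strain arrays, with 0.10 and -0.05 under ILn. Among them Tie1, an endothelial receptor kinase, read 6.10 and 6.27 under ILn, 5.76 on FVBn B and at most 5.90 on the other 6. Against the mean of LP, MOLF and NZB, Tie1 differed by 0.91 under ILn, but Kdr by -0.98 and Flt1 by -0.67. The median ILn difference over the endothelial list was 0.07. Leukocyte genes (10 tested of 15, including Ptprc) had means of -0.11 to 0.15. Platelet genes (6 tested of 13, including Pf4) had means of 0.13 and 0.19 under ILn, -0.18 on FVBn B, and -0.28 to 0.48 on the other 6. The highest, on NZB B, came with Itgb3 at 7.33 and Gp9 at 7.52, and that array stands apart as described below. Pf4 (platelet factor 4) read 5.75 and 5.77 under ILn and at most 5.40 on the other 7 arrays. Vwf (von Willebrand factor, made by endothelium too) read 5.84 and 5.46 under ILn and was at the floor on the other 7. F2r (a thrombin receptor) read 9.04 and 9.02 under ILn, 8.73 on FVBn B and at most 8.69 on the rest. The remaining platelet genes tested were not higher under ILn on average. Itgb3, Gp9 and Gp5 under ILn differed by -0.62, -0.57 and -0.04 from the mean of LP, MOLF and NZB. The genes of these lists were named after their values were seen, and the part of platelets or vessels in the globin values was not tested. No gene of these 3 lists passed the test in any of the 4 tested comparisons. Mammary epithelial genes (10 tested of 12, the keratins among them) had means of -0.21 to 0.17 with no call, and single genes varied more. Krt19 ran from 8.16 on MOLF A to 9.92 on ILn B, and Csn2 (beta casein) from 10.33 on LP B to 11.73 on NZB B. Skeletal muscle genes (13 tested of 14) followed another order, highest under LP at 1.49 and 1.43 and lowest on FVBn B at -1.83. Of these, 6 rose in LP against MOLF, 6 fell in MOLF against NZB and 5 fell in FVBn against the mean of LP, MOLF and NZB. Adipocyte genes (7 tested of 11) had means of -0.45 to 0.46 on the strain arrays and no call.

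**Figure D3:**
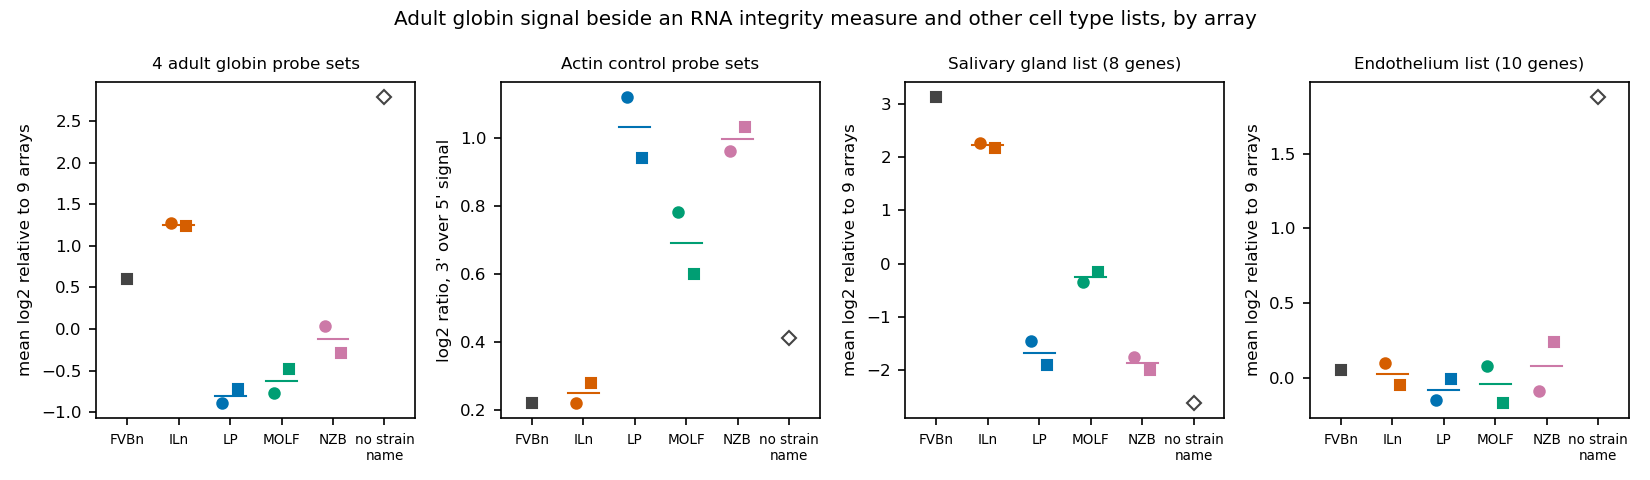
From left to right, the centred mean of the 4 adult globin probe sets, the log2 ratio of 3′ to 5′ actin control signal, and the centred means of the salivary gland (8 genes) and endothelium (10 genes) lists, on each array by strain name (circle A, square B, bar the mean of 2, open diamond the array with no strain name). FVBn and ILn lie above LP, MOLF and NZB in the globin and salivary panels and below them in the actin panel, while the 9 strain arrays lie between -0.17 and 0.24 in the endothelium panel.

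Among the other genes of red cell formation, no list showed a call in the 4 tested comparisons apart from 1 carbonic anhydrase. Haem synthesis had 8 of 13 genes tested, with medians of 0.21 in LP against NZB, -0.11 in LP against MOLF, 0.50 in MOLF against NZB and 0.00 in FVBn against the mean of the 3, beside medians of 0.00, 0.00, 0.00 and -0.02 over all probe sets tested. Alad, the second enzyme of the pathway, read 7.96 and 8.47 under ILn and between 7.75 and 8.22 under LP, MOLF and NZB. Urod, a later enzyme of the same pathway, read 7.88 and 7.82 under ILn and between 6.40 and 7.91 under those 3, so both overlapped. The red cell membrane and cytoskeleton list had 6 of 18 genes tested, with medians of 0.10, 0.45, -0.28 and 0.04 in the same order. Slc4a1, the band 3 anion exchanger that anchors this skeleton and swaps chloride for bicarbonate, read 5.16 and 5.77 under ILn, 5.91 on FVBn B and between 4.75 and 6.20 on the other 6 arrays.

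Erythroid transcription factors had 12 of 16 genes tested, with medians of 0.45, 0.25, 0.24 and -0.02. Gata1, the zinc finger factor that binds the GATA motif marked in the promoters, read 6.64 and 6.36 under ILn, 6.39 on FVBn B and between 5.84 and 6.82 on the others. The list of erythropoietin, transferrin and iron genes had 10 of 14 genes tested, with medians of -0.02, -0.15, -0.06 and 0.15. Tfrc, the transferrin receptor that brings iron into the cell, was 0.56 higher in FVBn than in the mean of LP, MOLF and NZB with an adjusted p of 0.782. Red cell enzymes and antioxidants had 9 of 14 genes tested, with medians of 0.16, -0.12, 0.13 and 0.16, and haemoglobin and haem clearance had 6 of 8, with medians of 0.19, 0.19, 0.04 and 0.03. Hp, the haptoglobin that binds free haemoglobin, read 9.57 on both ILn arrays, 8.71 on FVBn B and between 7.75 and 9.14 on the other 6. The ILn excess in Hp was 1.0 and its FVBn difference was 0.14.

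Carbonic anhydrases had 8 of 13 genes tested, with medians of 0.22, 0.22, 0.01 and -0.35, and Car6 was the one that passed. Car6, a secreted form made by salivary glands and also a gene of the salivary list, rose by 2.27 in FVBn against the mean of LP, MOLF and NZB (adjusted p = 0.025 in limma) and by 1.92 in LP against MOLF (adjusted p = 0.0342). Car3, abundant in muscle and fat and also a gene of the adipocyte list, differed by 1.68 in LP against MOLF with an adjusted p of 0.313. Car2 and Car6 therefore did not share an order, since Car2 read 8.16 on the FVBn array, below ILn, LP and MOLF. The globin list itself had 5 of 14 genes tested under single symbols, among them the embryonic genes, with medians of -0.43, 0.05, -0.25 and -0.09 and no call.

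The genes whose profile over the 9 strain arrays was most like the adult globin mean were sought among 4344 genes with a range of at least 1. The Pearson correlation exceeded 0.9 for 16 genes. The 10 highest were Col3a1 (a fibrillar collagen, r = 0.94), Thbs2 (a matricellular thrombospondin, 0.94), Ccr1 (a chemokine receptor, 0.93), Tnxb (tenascin X, 0.93), C1qtnf3 (a secreted protein with a C1q domain, 0.93), Tbx15 (a T-box transcription factor, 0.92), Bgn (biglycan, a matrix proteoglycan, 0.92), Mcam (a cell adhesion molecule, 0.92), Sgip1 (an endocytic adaptor, 0.91) and Mfap5 (a microfibril protein, 0.91). Over the 6 LP, MOLF and NZB arrays alone, r was 0.94 for Mcam, 0.85 for C1qtnf3, 0.81 for Tnxb and 0.65 for Thbs2, and 0.47 to -0.32 for the other 6. The likeness of those 6 thus lay mainly in the ILn and FVBn arrays. Tnxb, C1qtnf3, Tbx15, Sgip1 and Ccr1 were at the floor of 4.75 on several LP, MOLF and NZB arrays. Their correlations therefore rest partly on values raised to the floor. Col3a1 read 9.79 and 9.78 under ILn, 9.66 on FVBn B and between 8.53 and 8.96 on the others, while Mcam read 8.54 and 8.41, 7.98, and between 7.27 and 8.05.

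**Figure D4:**
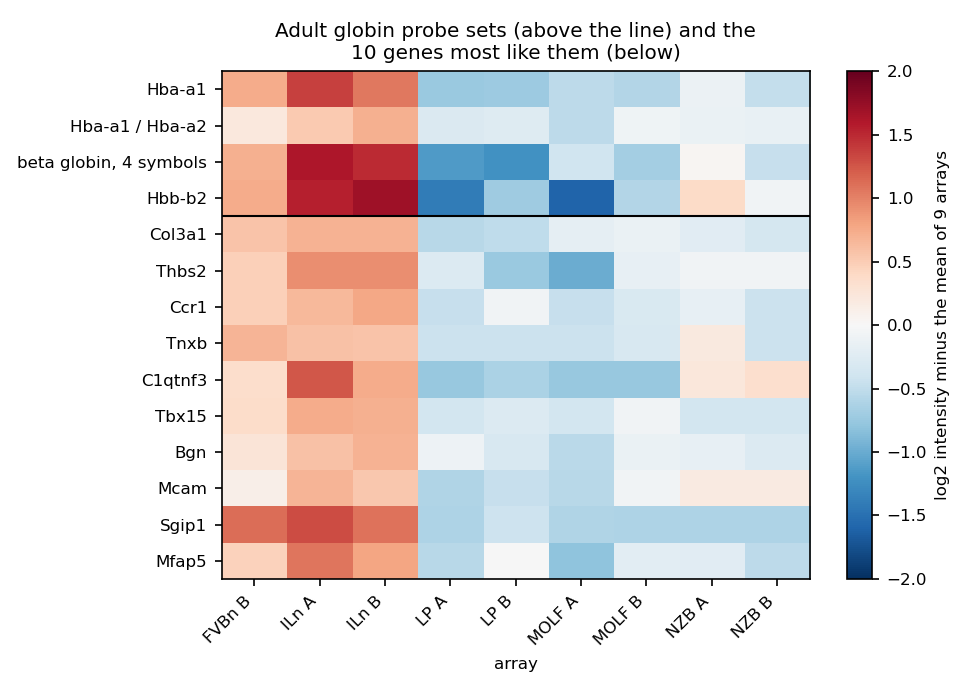
Log2 intensity minus the mean of 9 arrays (colour scale from -2 to 2) of the 4 adult globin probe sets, above the line, and of the 10 genes with the most similar profile, below it, on each strain array. All 14 rows are above their mean on the FVBn and ILn arrays, and Mcam and C1qtnf3 are above it on both NZB arrays as well.

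Features of the arrays touch these values. MOLF A and NZB B stood apart: the correlation between them was 0.931, against 0.831 to 0.862 with each of the other 7 strain arrays, among which the lowest correlation was 0.923. The SD of the difference between partner arrays over all tested probe sets was 0.379 under ILn, 0.466 under LP, 0.863 under MOLF and 0.913 under NZB, while the model gives all groups 1 spread. Without both arrays, the ILn excess over LP, MOLF and NZB stayed positive in all 4 adult globin probe sets, and Klf1 turned from -0.62 to 0.34 in LP against NZB.

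The array with no strain name had the highest adult globin signal of the series. Set to the same distribution as the others, it read 12.73 for Hba-a1, 10.78 for the probe set of Hba-a1 and Hba-a2, 12.71 for beta globin, 11.02 for Hbb-b2 and 7.62 for Alas2, each above all 9 strain arrays. Car2 at 8.38 and Klf1 at 6.85 lay within the range of the strain arrays. Its list means relative to the 9 strain arrays were 3.66 for adipocytes, 3.06 for skeletal muscle, 1.88 for endothelium, 1.07 for leukocytes, 1.26 for the red cell membrane list, -1.55 for mammary epithelium and -2.61 for salivary gland. The mammary epithelium mean was thus below that of every strain array, and Wap (whey acidic protein) was at the floor, but Csn2 at 11.93 lay above all 9 and Krt19 at 9.60 and Cdh1 at 7.93 lay within their range. In the red cell membrane list, Aqp1 at 9.13, Dmtn at 8.10 and Ank1 at 9.05 lay above all 9 strain arrays. Slc4a1 at 5.75, Rhag at 5.91 and Rhd at 5.47 lay within their range. The actin ratio of this array was 0.41. Its title names no tumour, and whether its tissue is a mammary tumour was not tested.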

How the data were processed

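The values the authors deposited are linear intensity values of probe sets on each array. For the step from probes to probe sets, the method was not given in the sources used here, as neither labels nor headers state it. The 2% trimmed mean of the deposited intensities was 150 on every array except ILn A, where it was 500. The 9 strain arrays were quantile normalized on the log2 scale with limma 3.58.1 in R 4.3.3. Values under the 30th percentile over the probe sets that are not controls (66 controls were left out) were raised to it. The array with no strain name was then set to the same distribution. Symbols came from the platform annotation (10855 probe sets with 1 symbol, 396 with several, 1237 with none), and 10839 Entrez identifiers matched RefSeq. Probe sets above the floor on at least 2 arrays were fitted with limma (lmFit, eBayes with an intensity trend), 1 mean per strain name, 4 residual and a median of 3.3 prior degrees of freedom and Benjamini-Hochberg adjustment over all 9897 at 0.05. The script was tested on simulated data. The number of arrays limits the precision. Alternatives covered normalization, floor, filter, title date, array letter, weights, variance trend and each array left out.

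The members and gene lists were chosen with earlier results of these data known. The text names every member probe set, list genes past the test (with others chosen after their values were seen), and the 10 genes most like the globin mean, 1 probe set a gene. The likeness over 6 arrays and the values within title dates that hold 2 strain names were added after seeing the data.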

Additional observations from a re-analysis of the deposited data

Results flagged for a closer look

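On the array with no strain name, which no comparison used, 5 of the member probe sets lay above all 9 strain arrays, by 1.15 to 1.94 on the log2 scale. Hba-a1 (94781_at) read 12.73 and the probe set of Hba-a2 and Hba-a1 (162457_f_at) read 10.78. The beta globin probe set 101869_s_at read 12.71 and Hbb-b2 (103534_at) read 11.02. Alas2 (92768_s_at) read 7.62. No group had enough arrays for a check of outlying arrays within it.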

How the results depend on the processing

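The 35 member differences had 693 alternative values. Of these, 658 counted as kept, 20 changed sign and 3 (of Alas2) were 0.00. Another 3 passed the threshold (all in FVBn, named in the report), and 9 moved by more than the spread between arrays. Moves were set against that spread only for ILn and within the title date of 5 strain names. Elsewhere kept means the same direction and side of the threshold, whatever the size. Klf1 in LP minus NZB thus counted as kept at -1.56 without NZB A, against -0.62 in the main fit. The ILn excess ranged from 1.53 to 1.91 for Hba-a1, 0.76 to 1.04 for 162457_f_at, 2.11 to 2.32 for 101869_s_at and 1.99 to 2.44 for Hbb-b2. The sign changes touched 8 uncalled differences, and their cause was not tested. In LP minus NZB these were Klf1 (0.34 without MOLF A and NZB B, 0.23 within the title date of 5 strain names, -1.56 to 0.33 leaving out 1 array at a time) and 162457_f_at (0.10 with median centring). In LP minus MOLF they were Hbb-b2 (-0.15 with trimmed mean scaling, -0.48 without MOLF A and NZB B, -0.12 within the title date, -0.47 to 0.55 leaving out 1 array), 162457_f_at (-0.21, -0.18 and -0.20 to 0.25 for the last 3 of these settings), Alas2 (0.01 with a floor at the 10th percentile, -1.47 to 0.16 leaving out 1 array) and Hba-a1 (0.04 with median centring). In MOLF minus NZB they were Klf1 (-0.47 to 1.45 leaving out 1 array) and 162457_f_at (0.07 without MOLF A and NZB B, 0.07 within the title date, -0.38 to 0.07 leaving out 1 array).

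Counts of called probe sets moved more. LP minus NZB had 1, and 0 with median centring, trimmed mean scaling, title date as a block, the replicate block or no intensity trend (503, 642, 319, 538 and 661 at an unadjusted p under 0.05 in limma), 2 with a floor at the 10th percentile, 7 with no filter, 6 with the filter on 5 arrays, 2 with array weights, and 0 to 6 leaving out 1 array. LP minus MOLF had 44, and 27 with median centring, 28 with title date as a block, 19 without MOLF A and NZB B, and 2 (without LP A) to 44 leaving out 1 array. MOLF minus NZB had 33, and 3 with median centring, 20 with no filter, 2 with title date as a block, 12 with the replicate block, 12 with array weights, 0 without MOLF A and NZB B (844 at an unadjusted p under 0.05 in limma), and 4 (without ILn B) to 38 leaving out 1 array. FVBn minus the mean of LP, MOLF and NZB had 34, and 107 with no filter, 17 with title date as a block, 53 with array weights, and 22 (without LP A) to 38 leaving out 1 array. ILn minus the same mean had 39, and 13 with title date as a block, 92 with array weights, 25 without MOLF A and NZB B, and 5 (without ILn A or ILn B) to 42 leaving out 1 array. Whether the letters A and B pair arrays of different strain names cannot be told from these values. The correlation of the A minus B differences between strain names ran from -0.71 to 0.13. The lowest was that of MOLF with NZB, whose arrays that stand apart, MOLF A and NZB B, carry opposite letters. The replicate block changed no member's call.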
